A study of Mus musculus with 8 samples.

Results

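Rhox1, Rhox5, Rhox6, Rhox9, Rhox10 and Rhox13 are 6 homeobox genes of the Rhox cluster on the mouse X chromosome, and they were described here in embryonic stem cells labelled wild type (WT) or knockout (KO) for Zbtb24. They were found by symbol among the 43309 genes of the count table, where 41 Rhox genes are listed, and they were selected on earlier results of these same libraries, in which KO and WT were compared. Their KO/WT values are therefore given as a description, without a p-value, at both cell numbers. The same holds for their values across cell number within KO and for the difference of the KO/WT ratios between cell numbers.

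The 8 libraries form 4 groups of 2: WT from 1000 cells, KO from 1000 cells, WT from 100 cells and KO from 100 cells. WT stands for Zbtb24 2lox/+ and KO for Zbtb24 1lox/1lox. The sample labels read control or experiment, and control was taken as WT and experiment as KO following the study's methods. All cells were of the J1 (129SV) line and were grown in medium with serum on gelatin without feeder cells, and all libraries were made from cells directly with the SMARTer Ultra Low RNA Kit v3, which copies polyadenylated RNA into full-length cDNA. The input of 1000 cells stood for about 10 ng of RNA and 10 PCR cycles, and that of 100 cells for about 1 ng and 18 cycles, so that cell number and PCR cycles changed together. The series record speaks of a pair of clones per genotype and the methods of more clones, and no label ties a library to a clone. The SDs and p-values below therefore measure the spread between labelled libraries.

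Zbtb24 encodes a zinc finger protein that is mutated in one form of the human ICF syndrome, in which DNA methylation is lost at particular repeats. The Rhox genes, for reproductive homeobox on the X chromosome, encode homeodomain transcription factors and are known from testis, epididymis, ovary and placenta. They are arranged in an alpha, a beta and a gamma subcluster, and in most somatic cells DNA methylation at their promoters keeps them silent. Rhox1 belongs to the alpha, Rhox5, Rhox6 and Rhox9 to the beta, and Rhox10 and Rhox13 to the gamma subcluster.

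Library totals ranged from 9666985 to 16686525 counts. Levels are given as cpm, the count scaled to a library's depth in the usual way, after scaling by the trimmed mean of M values (TMM), and a gene was called when its adjusted p was under 0.05 in edgeR's quasi-likelihood test over 16816 genes. The gene-level count of Zbtb24 was higher in the libraries labelled KO, at 37.7 to 40.9 cpm at 1000 cells and 37.3 to 39.7 cpm at 100 cells, than in those labelled WT, at 14.1 to 20.3 cpm. Zbtb24 was called higher in KO at both cell numbers (log2 ratio 1.37 at 1000 and 0.91 at 100 cells). A count over the whole gene does not show whether the deleted part was read. The label is therefore not checked by it, and "KO" below means the libraries labelled KO. Pluripotency markers (6 genes, among them Pou5f1 and Nanog) summed to 2713 to 3503 cpm in every library, with Tdgf1 alone at 1549 to 1957 cpm. In KO against WT, 2 were called lower and 3 higher at 1000 cells (20.6% and 20.9% of all tested genes). At 100 cells 1 was lower and 3 were higher (16.6% and 17.6%). Nanog was higher at 1000 and 100 cells (log2 ratio 1.13 and 0.58), and Pou5f1 was lower at 1000 (-0.41) and higher at 100 cells (0.46). Markers of neurons and glia (6 genes, among them Snap25 and Syt1) summed to 12.4 to 14.0 cpm in WT at both cell numbers, 26.2 to 26.7 cpm in KO at 1000 cells, and 301 to 308 cpm in KO at 100 cells. None of the 6 was at 0 in any group, and all 6 were called higher in KO at 100 cells against 3 of 6 at 1000 cells. Both KO libraries of 100 cells thus stand apart from the other 6, and no KO library at that input is without the signal.

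The Y-linked genes Ddx3y, Eif2s3y and Uty were called lower in KO at both cell numbers, with log2 ratios between -2.60 and -1.61, and Kdm5d was called lower at 1000 cells (log2 ratio -2.24). At 100 cells the log2 ratio of Kdm5d was 0.49, toward higher in KO, and not called. Xist, the RNA that silences an X chromosome, was also called lower (log2 ratio -1.02 at 1000 and -2.04 at 100 cells). Apart from the 6 Rhox genes, 295 X-linked genes of at least 10 cpm had a median log2 KO/WT ratio of 0.09 at 1000 and -0.07 at 100 cells, beside 0.02 and -0.04 for autosomal genes. The part that these differences have in the Rhox values was not tested.

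The 6 genes are protein-coding and lie, on GRCm38, within the 1.09 Mb that the 42 annotated Rhox genes span. Rhox1 is at chrX:37213804-37222258 on the minus strand, with its start at -583 kb from the annotated start of Rhox5. Rhox5 is at chrX:37804842-37808876, Rhox6 at chrX:37826910-37829857 and, on the minus strand, Rhox9 at chrX:37899097-37901770. Rhox10 is at chrX:38066475-38071691 and Rhox13 at chrX:38121219-38129967, 262 and 316 kb past the Rhox5 start. Among the 6, exon sequence shared with another gene was found for Rhox6 and Rhox9. Of the 50 bp windows of their exons, 16.5% of those of Rhox6 were also found elsewhere, mainly in Rhox9, and 6.28% of those of Rhox9, mainly in Rhox6. The other 4 had no shared window, and the exons of none of the 6 overlapped another gene.

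Promoter sequences from RefSeq (GRCm38.p6), from 250 bases before to 50 after the start, matched 4 of the 6 genes, and they are shown because CG dinucleotides, in capitals, are the sites that DNA methylation acts on. The windows are chrX:37222209-37222508 (minus strand) for Rhox1, and on the plus strand chrX:37754358-37754657 for Rhox5, chrX:38066225-38066524 for Rhox10 and chrX:38120590-38120889 for Rhox13.
Rhox1: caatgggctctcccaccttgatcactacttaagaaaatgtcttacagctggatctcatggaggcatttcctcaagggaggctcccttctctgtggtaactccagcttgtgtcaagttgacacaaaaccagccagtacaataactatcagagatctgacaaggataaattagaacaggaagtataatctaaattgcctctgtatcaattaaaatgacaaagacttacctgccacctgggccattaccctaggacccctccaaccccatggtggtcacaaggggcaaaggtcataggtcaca
Rhox5: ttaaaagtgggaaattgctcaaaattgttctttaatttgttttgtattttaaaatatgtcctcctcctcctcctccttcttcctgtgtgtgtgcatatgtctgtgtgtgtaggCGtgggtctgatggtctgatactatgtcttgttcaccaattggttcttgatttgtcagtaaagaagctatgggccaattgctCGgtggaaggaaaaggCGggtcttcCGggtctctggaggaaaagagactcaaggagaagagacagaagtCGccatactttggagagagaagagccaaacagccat
Rhox10: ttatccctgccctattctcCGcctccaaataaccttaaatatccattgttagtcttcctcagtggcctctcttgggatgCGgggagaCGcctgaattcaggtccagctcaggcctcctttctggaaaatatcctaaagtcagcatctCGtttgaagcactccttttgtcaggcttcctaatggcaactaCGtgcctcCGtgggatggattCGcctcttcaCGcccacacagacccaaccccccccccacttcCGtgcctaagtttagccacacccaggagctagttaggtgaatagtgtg
Rhox13: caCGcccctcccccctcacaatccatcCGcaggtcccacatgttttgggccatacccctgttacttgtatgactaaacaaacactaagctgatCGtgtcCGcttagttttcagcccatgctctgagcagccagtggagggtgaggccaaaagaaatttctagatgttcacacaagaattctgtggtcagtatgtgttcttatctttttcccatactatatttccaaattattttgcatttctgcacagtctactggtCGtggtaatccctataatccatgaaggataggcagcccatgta

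The Rhox1 window holds 0 CG, as do 5.43% of 32851 RefSeq promoters of this length. The windows of Rhox5 and Rhox13 hold 5 CG each and that of Rhox10 holds 9, beside a median of 7 over all promoters. The G and C content was 45.3% for Rhox1, 43.7% for Rhox5, 52.0% for Rhox10 and 45.3% for Rhox13. Both strands were also searched for CAGGACCT, a sequence that Zbtb24 is known to bind, for the E-box CACGTG and for the GATA motif AGATAA, none of which overlap one another. CAGGACCT, held by 1.99% of all promoters, and CACGTG, held by 7.15%, were in none of the 4 windows. AGATAA, held by 11.2%, was found once, in Rhox13. The RefSeq start of Rhox5 lies 50.2 kb before the GENCODE M21 start used for the position above, and that of Rhox13 0.38 kb before it, and gene-level counts do not show which start was used.

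In WT cells the Rhox genes differed widely in level, and Rhox5 was by far the most abundant. Per kb of exon at 1000 cells, the WT mean was 242 ± 9.27 cpm per kb (SD, n = 2) for Rhox5, 17.6 ± 0.913 for Rhox6, 8.80 ± 1.51 for Rhox10, 4.65 ± 0.762 for Rhox9, 3.03 ± 0.580 for Rhox13 and 0.606 ± 0.0704 for Rhox1. In this order no neighbouring means ± SD overlapped. At 100 cells the WT order was the same, with 255 ± 25.4 cpm per kb for Rhox5, 21.1 ± 4.03 for Rhox6, 8.12 ± 2.50 for Rhox10, 5.81 ± 0.914 for Rhox9, 3.61 ± 1.11 for Rhox13 and 0.283 ± 0.0833 for Rhox1. There, Rhox10 and Rhox9 were within their joint spread of each other. The places of these 2 genes rest on the scaling by exon length, which is 763 bp for Rhox10 and 2488 bp for Rhox9. In cpm, Rhox9 came before Rhox10 in WT, at 11.6 against 6.72 at 1000 cells and 14.5 against 6.2 at 100 cells. The paper reports uneven read coverage along transcripts for this kit, which the scaling does not take into account.

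In KO the order changed below Rhox5 at 1000 cells and from the top at 100 cells. At 1000 cells Rhox5 was at 37.0 ± 5.01 cpm per kb, ahead of Rhox10 at 14.3 ± 0.0551, Rhox13 at 5.77 ± 1.01, Rhox6 at 4.28 ± 0.0614, Rhox9 at 1.21 ± 0.182 and Rhox1 at 0.122 ± 0.0487. At 100 cells Rhox10 (11.5 ± 0.242 cpm per kb) came before Rhox5 (9.76 ± 0.650), followed by Rhox6 (5.32 ± 0.836), Rhox13 (4.03 ± 0.521), Rhox9 (0.816 ± 0.178) and Rhox1 (0.212 ± 0.0582). Of the neighbours in the KO orders, only Rhox6 and Rhox13 at 100 cells overlapped in their means ± SD.

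**Figure D1:**
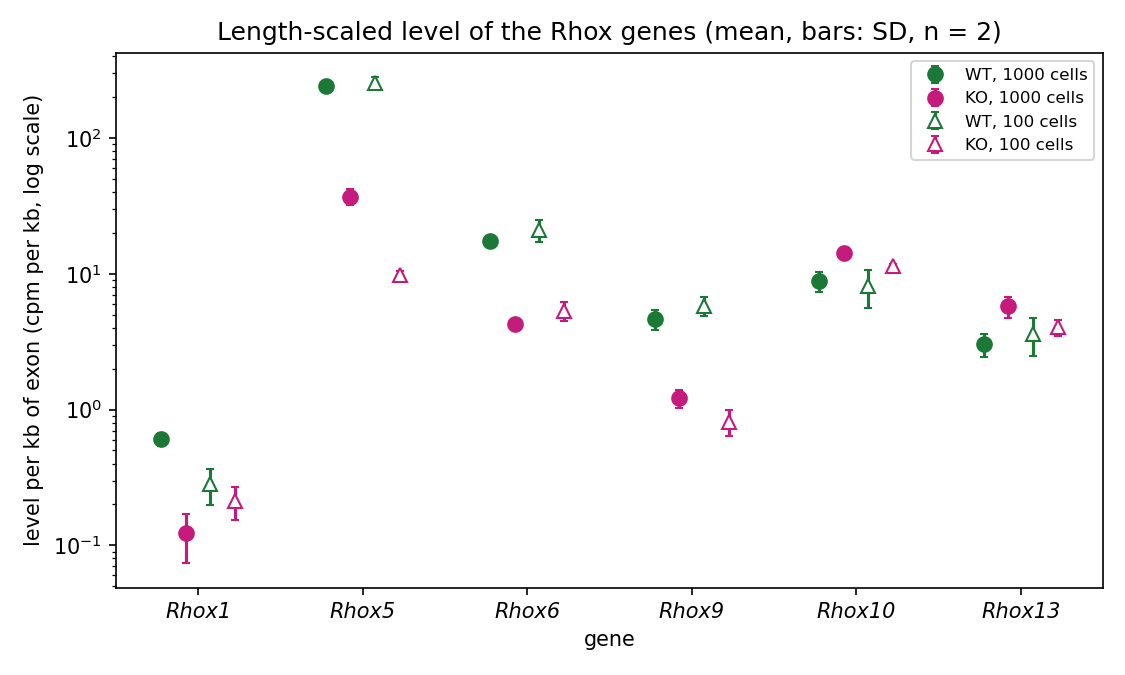
Level per kb of exon (cpm per kb, log axis) of the 6 Rhox genes, with the mean and SD of 2 libraries for each label and cell number. At 100 cells Rhox5 is at 255 in WT and 9.76 in KO, below Rhox10 at 11.5, and Rhox1 stays under 1 in every group.

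Taken in cpm, the 6 genes together made up 218 and 225 cpm in WT at 1000 cells and 245 and 231 cpm in WT at 100 cells. In KO they made up 53.5 and 49.0 cpm at 1000 cells and 25.6 and 28.9 cpm at 100 cells. Rhox5 accounts for most of the sum in WT. In these bulk samples, fewer cells that express a gene and less of its RNA per cell cannot be told apart.

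Rhox5 (also named Pem, ENSMUSG00000095180), the member known to be active in embryonic stem cells, placenta and Sertoli cells, was lower in all KO libraries. Its counts were 3061 and 2286 in WT and 393 and 364 in KO at 1000 cells, and 2083 and 2371 in WT and 94 and 102 in KO at 100 cells. These are 177 and 187 cpm against 30.5 and 25.2 cpm at 1000 cells, and 206 and 179 cpm against 7.01 and 7.71 cpm at 100 cells. The KO libraries lay below the WT libraries without overlap at both inputs, and the 100-cell KO libraries lay below the 1000-cell KO libraries. The log2 KO/WT ratio was -2.71 ± 0.09 (SE), or 6.55-fold lower, at 1000 cells and -4.75 ± 0.15, or 26.9-fold lower, at 100 cells.

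Rhox6 (Psx1, ENSMUSG00000006200), known from placenta and germ cells, was also lower in all KO libraries. Its counts were 318 and 209 in WT and 55 and 63 in KO at 1000 cells, and 186 and 320 in WT and 64 and 79 in KO at 100 cells. In cpm this was 18.4 and 17.1 against 4.27 and 4.36 at 1000 cells, and 18.4 and 24.1 against 4.78 and 5.97 at 100 cells. Every KO library lay far below every WT library, and the KO libraries of 100 cells lay slightly above those of 1000 cells. The log2 ratio was -2.04 ± 0.16 (4.11-fold lower) at 1000 cells and -2.03 ± 0.21 (4.09-fold lower) at 100 cells.

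Rhox9 (Psx2, ENSMUSG00000068048), a close relative of Rhox6 that is likewise known from placenta and gonad, followed it in direction. Its counts were 223 and 125 in WT and 43 and 39 in KO at 1000 cells, and 130 and 213 in WT and 23 and 31 in KO at 100 cells. The levels were 12.9 and 10.2 cpm against 3.34 and 2.70 cpm at 1000 cells, and 12.9 and 16.1 cpm against 1.72 and 2.34 cpm at 100 cells. WT and KO did not overlap, and both 100-cell KO libraries lay below both 1000-cell KO libraries. The log2 ratio was -1.95 ± 0.21 (3.87-fold lower) at 1000 cells and -2.88 ± 0.25 (7.34-fold lower) at 100 cells.

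Rhox10 (ENSMUSG00000053909), which is known for its role in establishing spermatogonial stem cells, was higher in KO. Its counts were 102 and 92 in WT and 140 and 158 in KO at 1000 cells, and 49 and 100 in WT and 116 and 118 in KO at 100 cells. The levels were 5.90 and 7.53 cpm against 10.9 and 10.9 cpm at 1000 cells, and 4.85 and 7.55 cpm against 8.66 and 8.92 cpm at 100 cells. KO lay above WT without overlap at both inputs, by less at 100 cells, where the WT libraries spread more. The log2 ratio was 0.72 ± 0.17 at the larger input. At 100 cells it was 0.44 ± 0.24 and not called, with 0.185 when WT replicate 1 was left out and 0.82, called, when WT replicate 2 was.

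Rhox13 (ENSMUSG00000050197), known from male germ cells, had low counts throughout. They were 52 and 28 in WT and 57 and 82 in KO at 1000 cells, and 25 and 51 in WT and 43 and 51 in KO at 100 cells. The levels were 3.01 and 2.29 cpm against 4.43 and 5.68 cpm at 1000 cells, and 2.47 and 3.85 cpm against 3.21 and 3.85 cpm at 100 cells. KO lay above WT at 1000 cells, and the groups overlapped at 100 cells. The log2 ratio was 0.91 ± 0.25 at 1000 cells, a call that was lost without KO replicate 2 (0.72) and with DESeq2 (0.92), and 0.10 ± 0.32, not called, at 100 cells.

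Rhox1 (ENSMUSG00000071773), a gene known from testis, was at the counting floor in KO. Its counts were 10 and 6 in WT and 1 and 2 in KO at 1000 cells, and 2 and 4 in WT and 3 and 2 in KO at 100 cells. Every KO library thus held at most 3 counts, the floor used here, and the gene passed the filter of 10 counts only through 1 WT library. Summed over the libraries of a group, WT was 4.94 times KO at 1000 cells, with a 95% exact interval of 1.41 to 26.5, and 1.37 times KO at 100 cells, with an interval of 0.348 to 5.67, both of which cover counting error only. The fitted log2 ratio was -2.21 ± 0.95 at 1000 and -0.46 ± 1.00 at 100 cells, called at neither.

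**Figure D2:**
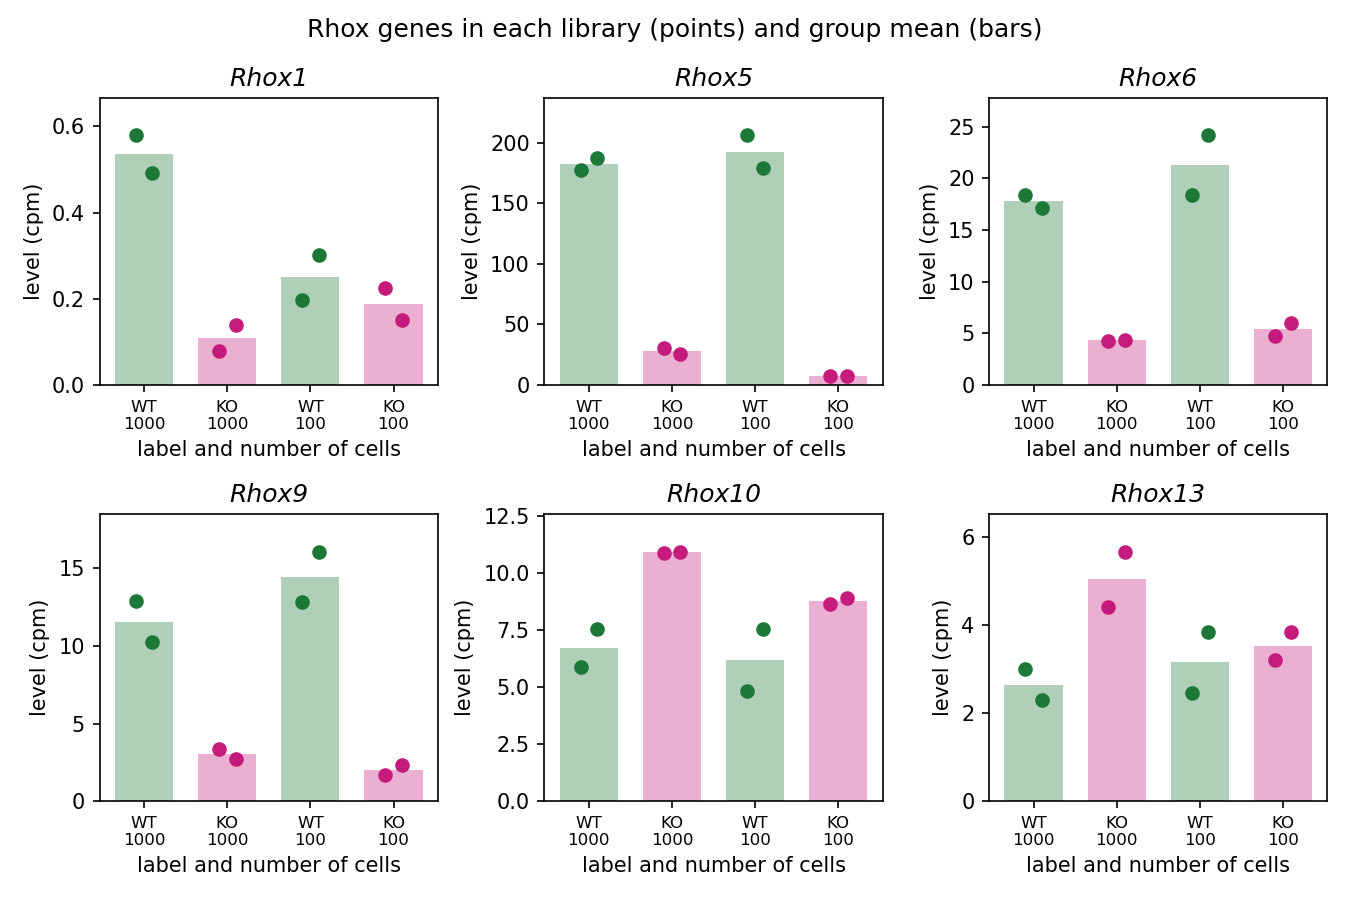
Level (cpm, linear axis from 0, 1 scale per gene) of the 6 Rhox genes in each of the 8 libraries (points) with the mean of 2 libraries (bars), by label and cell number. Rhox5, Rhox6 and Rhox9 are lower in every KO library, Rhox10 is higher in every KO library, and Rhox13 overlaps at 100 cells.

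Of the 6 genes, 3 were called lower in KO at 1000 cells (Rhox5, Rhox6 and Rhox9), where 20.6% of all tested genes were called lower, and 2 were called higher (Rhox10 and Rhox13), where 20.9% were called higher. At 100 cells the same 3 were called lower, beside 16.6% of all tested genes, and 0 were called higher, beside 17.6%. Since the genes were selected on this contrast, these counts are a description. Among the 6, the genes called lower all belong to the beta subcluster and those called higher, at 1000 cells only, to the gamma subcluster. Of the alpha subcluster, Rhox1 was at the floor in KO, and Rhox2a, described below, was called lower at both inputs. The promoters, as far as they are printed above, hold 5 CG for Rhox5 and 9 and 5 CG for Rhox10 and Rhox13.

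Within WT, the comparison of 100 with 1000 cells asks whether the input alone moved the levels, and it was not used to choose the genes. None of the 6 was called by edgeR's quasi-likelihood test, 0 had an unadjusted p under 0.05 and 0 were called by DESeq2, while 0.827% of all tested genes were called. The WT libraries of 100 cells were the most spread, and their counts differed from each other by a chi-square per degree of freedom of 15.01, beside 1.898 to 2.998 in the other groups. The share stands for 139 genes, against 2631 without WT replicate 1 and 2601 without WT replicate 2 of 100 cells, and 20 and 6 without WT replicate 1 and 2 of 1000 cells. For Rhox5 the log2 ratio of 100 over 1000 cells was 0.07, with a 95% interval of -0.19 to 0.33 and an edgeR adjusted p of 0.889. For Rhox6 it was 0.25 (-0.13 to 0.62, edgeR adjusted p = 0.635) and for Rhox9 0.30 (-0.12 to 0.73, edgeR adjusted p = 0.597). For Rhox10 it was -0.11 (-0.69 to 0.46, edgeR adjusted p = 0.924), for Rhox13 0.24 (-0.51 to 0.99, edgeR adjusted p = 0.844) and for Rhox1 -1.07 (-3.05 to 0.91, edgeR adjusted p = 0.718). The intervals of Rhox13 and Rhox1 do not leave out a change as large as their KO/WT log2 ratios of 0.91 and -2.21 at 1000 cells. For the KO/WT ratios at 100 cells the same holds for Rhox10 (0.44), Rhox13 (0.10) and Rhox1 (-0.46). Without WT replicate 1 of 100 cells, Rhox6 was called higher at 100 cells (log2 ratio 0.40, edgeR adjusted p = 0.0461), and over the alternatives its adjusted p ranged from 0.0461 to 1.

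Within KO, 2 of the 6 genes were called lower at 100 than at 1000 cells. Of the 16816 tested genes, 52.1% were called in either direction, 4165 lower and 4588 higher. Rhox5 fell by 1.91 ± 0.13 on the log2 scale. Rhox13 fell by 0.52 ± 0.22, and this call was lost in 7 of 12 alternatives. The log2 ratios of the others were 0.32 ± 0.20 for Rhox6, -0.56 ± 0.28 for Rhox9, -0.31 ± 0.14 for Rhox10 and 0.73 ± 1.17 for Rhox1. The KO libraries of 100 cells are those with the neuron and glia markers, at 301 to 308 cpm against 26.2 to 26.7 cpm at 1000 cells. Their pluripotency markers summed to 3047 to 3130 cpm against 3459 to 3503 cpm. Of the 6 pluripotency markers, 4 were called lower at 100 cells, among them Nanog (log2 ratio -0.51), and 1, Pou5f1, higher (1.20). The part of the neuron and glia signal in the lower Rhox5 level was not tested.

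The KO/WT log2 ratio at 100 cells minus that at 1000 cells was -1.996 ± 0.175 for Rhox5, the only one of the 6 that was called, beside 16.3% of all tested genes. The 2745 genes behind this share became 727 to 5633 when 1 library was left out, with 727 without KO 100 replicate 2, 882 without KO 100 replicate 1, 752 and 1461 without KO 1000 replicate 2 and 1, 916 and 1241 without WT 1000 replicate 1 and 2, and 4763 and 5633 without WT 100 replicate 1 and 2. The difference of ratios was -0.89 ± 0.34 for Rhox9, -0.78 ± 0.41 for Rhox13, -0.23 ± 0.30 for Rhox10, 0.05 ± 0.26 for Rhox6 and 1.78 ± 1.33 for Rhox1. Without WT replicate 1 of 100 cells Rhox9 and Rhox13 were called as well, which made 3.

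The remaining 35 Rhox genes in the table were at or near 0. In 16 of them no library held a count, and only Rhox2a and Rhox2-ps reached 10 counts in a library. The 35 genes summed to 21 to 53 counts in each WT library. In the KO libraries the sum was 16 and 19 counts for the larger input and 4 and 5 counts for the smaller. Rhox8, Rhox11 and Rhox12, which lie between or beside the members, held at most 3 counts in any library.

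Rhox2a, a gene of the alpha subcluster (chrX:37244976-37249686), was called lower in KO at both inputs. The gene passed the count filter only through WT libraries. Its entry into the test thus depended on its level in WT, which the adjusted p-values below do not take into account. It had 9 and 11 counts in WT and 1 and 1 in KO at 1000 cells, and 4 and 17 in WT and 0 and 0 in KO at 100 cells. WT was 9.26 times KO at 1000 cells (95% exact counting interval 2.25 to 81.7, edgeR adjusted p = 0.0112) and, with 21 counts against 0, at least 5.94-fold higher at 100 cells by the lower limit of that interval (edgeR adjusted p = 0.0149). At 1000 cells the call was lost without WT replicate 2 or KO replicate 2 and at 100 cells without either KO library. The gene shares 91.1% of its 50 bp windows with other Rhox2 genes, and the discarding of reads with several positions leaves its level uncertain. The 8 genes Rhox2a to Rhox2h together held 23 and 14 counts in WT against 1 and 2 in KO at 1000 cells, and 8 and 26 against 0 and 0 at 100 cells.

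The pseudogene Rhox2-ps was called lower in KO at 100 cells and not at 1000 cells, and the difference between the inputs was not called. Its counts were 15 and 12 in WT and 10 and 6 in KO at 1000 cells, with a log2 ratio of -0.64 ± 0.57 (edgeR adjusted p = 0.395). They were 5 and 6 in WT and 0 and 0 in KO at 100 cells, at least 2.86-fold lower in KO by the lower limit of the 95% exact counting interval of 11 counts against 0 (edgeR adjusted p = 0.0287), a call that was lost in 4 of 12 alternatives. The Rhox3 genes (7) held 1 count in all, the Rhox4 genes (8) 2 to 5 counts per WT library and 0 to 2 per KO library, and Rhox7a with Rhox7b 1 to 7 counts per library.

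Genes next to the cluster had smaller KO/WT ratios in size than Rhox5, Rhox6 and Rhox9. At 1000 cells 1 of them, Lamp2, had a larger one than Rhox10 and Rhox13. At 100 cells Lamp2 (1.12) and Nkrf (-0.63) exceeded Rhox10 (0.44) in size, and most of these genes exceeded Rhox13 (0.10). Considered were 15 protein-coding genes of at least 10 cpm within 1 Mb of the cluster's ends. Of them, 3 were called lower and 4 higher at 1000 cells, and 3 lower and 2 higher at 100 cells. Of all tested genes, 20.6% were lower and 20.9% higher at 1000 cells, and 16.6% and 17.6% at 100 cells. The median log2 ratio of the 15 genes was 0.10 and -0.17, beside -0.001 over all tested genes at both. Their ratios ran from -0.63 to 1.39. On the side of Rhox1, Ndufa1, a subunit of respiratory complex I, had a log2 ratio of 0.52 (edgeR adjusted p = 2.52e-07) at 1000 and -0.23 (0.14) at 100 cells. Nkap, a regulator of transcription and splicing, had 0.22 (edgeR adjusted p = 0.0538) and -0.30 (0.0868). On the far side, Lamp2, a lysosomal membrane protein, was higher in KO at both inputs, by 1.39 (edgeR adjusted p = 1.95e-14) and 1.12 (0.000216). Cul4b, a ubiquitin ligase scaffold, had 0.16 (edgeR adjusted p = 0.0413), a call lost in 8 of 13 alternatives, and 0.07 (0.662). Over the 295 X-linked genes of at least 10 cpm, the ratios ran from -0.71 (5th percentile) to 0.88 (95th percentile) at 1000 cells and from -1.11 to 0.84 at 100 cells, and 3 and 5 of them lay below -2, where Rhox5 and Rhox6 lay at both inputs and Rhox9 at 100 cells.

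**Figure D3:**
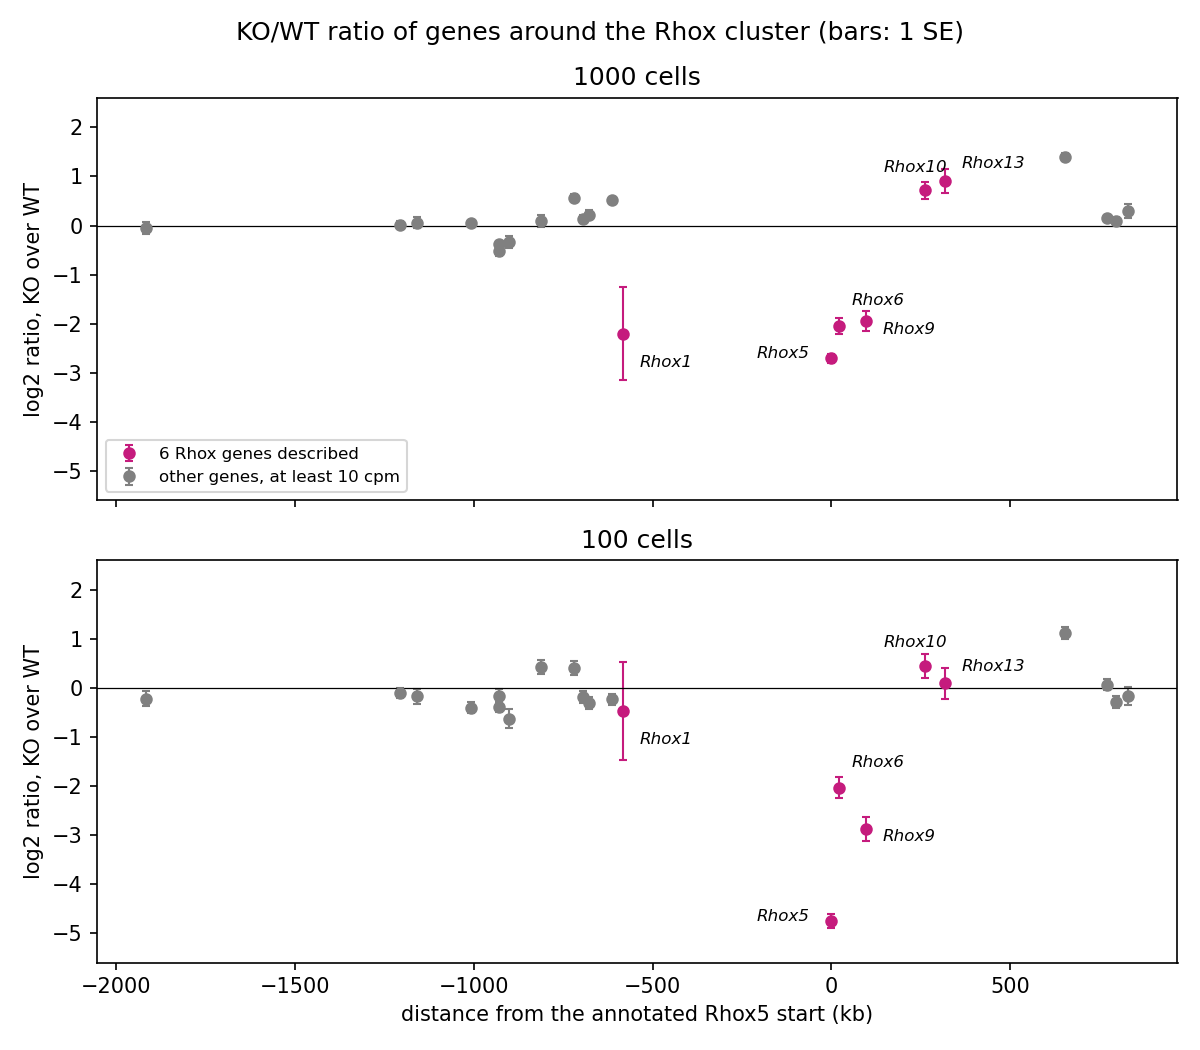
Log2 KO/WT ratio (bars, 1 SE) against the distance in kb from the annotated Rhox5 start at 1000 cells (top) and 100 cells (bottom), for the 6 Rhox genes (coloured) and for other genes of at least 10 cpm within 2 Mb (grey). Rhox5, Rhox6 and Rhox9 lie at -1.95 or lower, Rhox10 and Rhox13 next to them on the map lie above 0, and the grey genes lie between -0.63 and 1.39.

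DNA methylation is laid down by Dnmt3a, Dnmt3b and their cofactor Dnmt3l, kept by Dnmt1 with Uhrf1, and removed with the help of Tet enzymes, while Cdca7 and Hells form a chromatin remodelling complex that methylation of repeats needs. Of these 9 genes (Tet1 and Tet2 for the last), 6 were called lower and 0 higher in KO at 1000 cells. At 100 cells, 5 were called lower and 1 higher. Their median log2 ratios were -0.43 and -0.38, beside -0.001 over all tested genes at both. By share, 20.6% of all tested genes were called lower and 20.9% higher at 1000 cells, and 16.6% and 17.6% at 100 cells. The list was chosen with earlier results of these data known, so the adjusted p-values below are not independent tests. Dnmt3b was lower by edgeR at both inputs, with a log2 ratio of -2.17 at 1000 (adjusted p = 6.05e-19) and -1.34 at 100 cells (4.78e-05). Cdca7 had -1.74 (edgeR adjusted p = 2.12e-17) and -1.46 (4.42e-05), and Dnmt3l -1.41 (edgeR adjusted p = 5.56e-16) and -1.35 (4.78e-05). Dnmt3a had -1.01 (edgeR adjusted p = 1.24e-12) and -1.06 (0.000166), and Hells -0.26 (edgeR adjusted p = 0.000482) and -0.38 (0.0237). The call of Hells at 100 cells was lost in 3 of 13 alternatives, among them without KO replicate 1 (-0.41) and without KO replicate 2 (-0.34), with edgeR adjusted p up to 0.427. Dnmt1 was the gene called higher at 100 cells (log2 ratio 0.36), and Uhrf1 and Tet2 were called at neither input. The genes called lower at both inputs were lower in the same libraries in which Rhox5, Rhox6 and Rhox9 were lower and Rhox10 was higher. Whether these differences have a part in the Rhox values was not tested.

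Other germline genes that are known to be silenced by DNA methylation were called in both directions. This list, too, was chosen with earlier results of these data known, and its adjusted p-values are not independent tests. Of 12, 3 were called lower and 4 higher in KO at 1000 cells and 4 lower and 3 higher at 100 cells, with median log2 ratios of 0.19 and 0.05. Of all tested genes, 20.6% were lower and 20.9% higher at 1000 cells and 16.6% lower and 17.6% higher at 100 cells. At both inputs Sycp3, a component of the synaptonemal complex, was higher (0.80, edgeR adjusted p = 0.00332, and 0.92, 0.0209) and so was the germ cell helicase gene Ddx4 (0.35, edgeR adjusted p = 0.00973, and 0.44, 0.0329). Sycp1, another component of that complex, was lower (-0.82, edgeR adjusted p = 4.44e-05, and -1.01, 0.00553), as was the germ cell surface gene Tex101 (-1.47, edgeR adjusted p = 0.0068, and -2.42, 0.00885). The call of Tex101 was lost at 1000 cells in 3 of 12 alternatives, among them without WT replicate 2 (-0.78, edgeR adjusted p = 0.247), and at 100 cells without KO replicate 2 (-1.85, edgeR adjusted p = 0.126). That of Sycp1 at 100 cells was lost without KO replicate 1 (edgeR adjusted p = 0.0963). The call of Ddx4 was lost in 5 of 13 alternatives at 1000 cells, among them without WT replicate 2 (0.31) or KO replicate 2 (0.34), and in 4 of 13 at 100 cells, among them without KO replicate 1 (0.43) or 2 (0.45). Sycp3 lost its call in 3 of 13 alternatives at each input, among them without KO replicate 2 at 1000 cells (0.56) and without KO replicate 1 (0.94) or 2 (0.92) at 100 cells.

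Cell types in which Rhox genes are known to be active were looked at through their markers. The marker calls stand beside 20.6% of all tested genes lower and 20.9% higher at 1000 cells, and 16.6% and 17.6% at 100 cells. Sertoli cell markers (Wt1, Amh, Dhh and Gata1) summed to 5.44 to 7.22 cpm in WT, 2.49 to 3.65 cpm in KO at 1000 cells and 1.72 to 1.97 cpm in KO at 100 cells. Of them 2, Wt1 and Gata1, could be tested and both were called lower at both inputs, and Amh was at 0 in all groups but WT at 1000 cells, and Dhh in KO at 100 cells. Trophoblast markers (7) summed to 14.6 to 15.5 cpm in WT and 16.5 to 17.0 cpm in KO at 1000 cells, and to 21.1 to 25.0 cpm and 22.2 to 23.3 cpm at 100 cells, with Cdx2 at 0 in KO at both inputs. Of their 5 tested members, 0 were called at 1000 cells, and 2 were lower (Hand1 and Gata3) and 1 higher (Ascl2) at 100 cells. Hand1 and Gata3 passed the count filter only through WT libraries, so that their entry into the test depended on their level in WT. Gata3 had 45 and 14 counts in the WT libraries of 100 cells. Primitive endoderm markers (7) summed to 3.92 to 7.71 cpm in WT, 5.83 to 6.58 cpm in KO at 1000 cells and 9.48 to 10.1 cpm in KO at 100 cells, with Foxa2 at 0 in every group and 0 and 1 of 5 called at 1000 and 100 cells. Male germ cell markers (Ddx4, Dazl and Sycp3) summed to 50.4 to 60.8 cpm in WT and 54.1 to 66.5 cpm in KO, none of them at 0. Ddx4 and Sycp3 were called higher at both inputs, and Dazl was called lower at 100 cells (log2 ratio -0.74) and not at 1000 cells. The part of these cell types in the Rhox values was not tested.

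Among the genes of at least 10 cpm whose log2 level was most like that of Rhox5 over the 8 libraries were Aoah and Ebp, with Pearson's r of 0.998 and 0.997. Both were lower in KO and lowest in KO at 100 cells, as Rhox5 was, but by less. Aoah went from 46.2 ± 0.307 cpm in WT to 22.2 ± 0.672 cpm in KO at 1000 cells, and from 46.8 ± 1.46 to 14.5 ± 0.395 cpm at 100 cells (SD, n = 2). For Rhox6 they were Dusp27 (r = 0.998), Sertad1 (0.992) and Cyct (0.991). Dusp27 went from 23.1 ± 1.503 cpm in WT to 5.23 ± 0.143 cpm in KO at 1000 cells, and from 28.5 ± 9.60 to 6.35 ± 1.17 cpm at 100 cells. Only these 2 of the 6 genes averaged 10 cpm or more over the libraries, and the r mainly reflect the step between the labels, which all 8 points share with their library, depth and label.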

How the data were processed

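The deposited table gives raw counts of sequenced fragments per Ensembl gene in each of 8 libraries. Before deposit, the authors demultiplexed with CASAVA 1.8.2, discarded ribosomal reads found with Bowtie2 2.1.0, aligned to mm10 with TopHat2 2.0.10 and assigned fragments to the genes of GENCODE M4 with HTSeq 0.6.1 (union mode, no strand). Fragments that fitted several genes or positions were not counted, which lowers the counts of near-identical Rhox copies. Names and positions came from GENCODE M21 on GRCm38, where 42425 of 43309 identifiers (97.96%) had an entry.

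The 6 Rhox genes and the gene lists were chosen with earlier results of these data known. The KO/WT adjusted p-values printed for genes of the lists are therefore not independent tests. A gene was tested if 1 of the 8 libraries reached 10 counts for it, and the resulting 16816 genes were fitted with the quasi-likelihood test of edgeR 4.0.16 (R 4.3.3) after TMM normalization, from the 4 libraries of a comparison, or all 8 for the difference between cell numbers, and p-values were adjusted by Benjamini-Hochberg over all tested genes (threshold 0.05). SEs are the log2 ratio divided by the root of the F statistic. DESeq2 1.42.0 and the other alternatives below were run as checks, and the fit was tested on simulated data. Totals ranged from 9666985 to 16686525 counts. A gene is at the floor where each library of a group holds at most 3 counts. Intervals of count ratios are exact binomial ones (95%) and cover counting error only. Named were the 6 genes, other Rhox genes past the threshold at either cell number, the nearest 2 flanking genes on each side, methylation and germline genes past it at both cell numbers, and the 3 genes with the highest Pearson r of log2(cpm + 1) with each Rhox gene of at least 10 cpm, of which 1 is not reported here. Other genes were chosen as the markers or controls given with them. No removal of PCR duplicates is given in the sources used here.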

Additional observations from a re-analysis of the deposited data

Results flagged for a closer look

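Rhox5 had a KO/WT log2 ratio that differed between the cell numbers by -1.996 ± 0.175 (100 minus 1000 cells), by the test of that difference over all 8 libraries. The gene was selected on the KO/WT values that enter this difference, so it is given as a value. The 100-cell KO libraries, at 7.01 and 7.71 cpm of Rhox5, are those with 301 to 308 cpm of neuron and glia markers, and the part of that signal was not tested.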

How the results depend on the processing

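Of 386 values of the 6 Rhox genes under an alternative, 361 kept their direction and side of the threshold, 9 lost and 6 gained a call, and 10 turned sign, all of them values that were not called. The KO/WT log2 ratio ranged from -2.85 to -2.57 for Rhox5, from -2.13 to -1.91 for Rhox6 and from -2.10 to -1.76 for Rhox9 at 1000 cells, and from -4.84 to -4.64, -2.20 to -1.81 and -3.13 to -2.66 at 100 cells, and every one of these was called. The number of the 6 genes called between KO and WT was 4 to 6 at 1000 and 3 to 4 at 100 cells.

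With DESeq2, the other Rhox genes called were 0 at 1000 and 1 at 100 cells (edgeR 1 and 2) and the germline genes called at 1000 cells were 3 (edgeR 7). Over all genes DESeq2 also called fewer, 4760 at 1000 and 4162 at 100 cells (edgeR 6979 and 5756). When every gene with 1 count was tested, 1 other Rhox gene and 2 flanking genes were called at 100 cells. Thinning to the smallest total left 3 germline genes at 1000 cells, and requiring 10 counts in every library left 4 at 100 cells. Over all genes these 2 settings called 5968 of 16816 and 4298 of 12295. Within KO, 1 of the 6 genes in place of 2 was called across cell number with DESeq2, with every gene, with 10 counts in every library and with thinning.

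Leaving out 1 library gave 0 to 1 other Rhox genes and 4 to 7 germline genes at 1000 cells. At 100 cells it gave 0 to 2 other Rhox genes, 1 to 9 flanking genes and 2 to 10 germline genes. Among the 6, it gave 0 to 1 calls across cell number within WT, 1 to 2 within KO and 1 to 3 for the difference of ratios. Values that turned sign were, for Rhox13 between KO and WT at 100 cells, -0.159 without WT replicate 1 and -0.04 without KO replicate 2 (range of the left-out libraries -0.159 to 0.475), and for Cul4b there -0.018 without WT replicate 1 (-0.018 to 0.173). Across cell number within WT they were -0.06 for Rhox5 without WT 100 replicate 1 (-0.06 to 0.195), 0.076 and 0.146 for Rhox10 without WT 1000 replicate 2 or WT 100 replicate 1 (-0.441 to 0.146), and -0.102 for Rhox13 without WT 100 replicate 2 (-0.102 to 0.482). For the difference of ratios they were -0.007, -0.126 and -0.12 for Rhox6 without WT 1000 replicate 1, WT 100 replicate 1 or KO 100 replicate 2 (-0.126 to 0.267), and 0.138 for Rhox10 without WT 100 replicate 2 (-0.5 to 0.138). Without WT 100 replicate 1 or 2, 9075 and 9551 genes were called between KO and WT at 100 cells, and without KO 100 replicate 1 or 2, 2110 and 2066 (5756 with all 4). The cause was not tested.

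Samples share only a replicate number. Deviations of same-numbered samples correlated at 0.16 and 0.17 between KO and WT at 1000 and 100 cells, -0.13 within WT and -0.04 within KO. With the replicate number as a block, 5 and 3 of the 6 genes were called between KO and WT at 1000 and 100 cells, 0 within WT, 2 within KO and 1 for the difference, as without it, and over all genes 285 in place of 139 were called within WT. Exchanging the numbers of 1 group, an alternative chosen after seeing the data, gave 512. Scaling by total count alone gave 4290 lower and 2776 higher genes at 1000 cells, beside 3465 and 3514. Rhox1 had 1 to 10 counts per library, and 33 of the 35 other Rhox genes stayed under 10 in every library. The part of depth and of shared reads in these counts was not tested.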
